A study of Mus musculus with 4 samples.

Results

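Among the endothelial cells (EC) lining the mouse aorta, 55 cells were chosen by the highest combined level of 7 genes, *Hbegf*, *Pthlh*, *Tspan11*, *Mtss1*, *Klk10*, *Bcl6b* and *Fgf18*. They are called the members below. A cell counted as EC when more than 1200 genes were detected and *Pecam1*, *Cdh5* and *Vwf* together had 3 or more counts. Of the 991 deposited cells, 824 passed the gene minimum and 820 of these were EC, so that the members were 55 of 820 EC and the other EC were 765. The score was the mean, over the 7 panel genes, of ln(1 + counts per 10000 counts of the cell). The panel levels are therefore what selected the members and are given as description only, and every test of genes below was made on genes outside the panel.

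The cells came from 4 libraries made by SORT-seq, a method in which each cell is sorted into its own well of a plate and every captured transcript carries a unique molecular identifier. The study compared genotypes: libraries ECKO 1 and ECKO 2 are labelled *Jag1* ECKO, and ECWT 1 and ECWT 2 are labelled *Jag1* ECWT. By the study's methods, both genotypes carry *Jag1* fl/fl alleles on a C57BL/6J background; the ECKO mice add a tamoxifen-inducible Cre driven by the endothelial *Cdh5* promoter (Cdh5 CreERT2), which the controls lack. Mice were male, aged 1.5 to 3 months, and tamoxifen was given at 2 mg per day for 5 days; aortas from root to iliac artery were digested with enzymes and sorted as CD31+, CD45- and TO-PRO-3-. How many animals each library holds is not given in the sources used here, so p-values measure only the spread between these libraries, which may be technical.

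Some properties of the whole series touch the results. *Jag1*, the gene the label says was deleted, ran against the labels: over all EC it stood at 164 and 70.8 CPM (counts in every 1000000 counts of the summed cells) in the libraries labelled ECKO and at 32.6 and 25.6 CPM in those labelled ECWT, so every genotype direction below is that of the labels. SORT-seq reads transcripts near their 3′ end, and which exons the floxed allele loses is not given in the sources used here, so these levels do not check whether the gene was deleted. The libraries held 903943 to 1850434 estimated transcripts, and the members' summed counts were 131710 in ECKO 1, 62275 in ECKO 2, 95429 in ECWT 1 and 63557 in ECWT 2. Well barcodes were shared between plates by design, 324 of 373 of them occurring in 2 or more libraries, and a cell was identified by its library and well together. The EC rule passed almost every cell, so the other EC also held cells with genes of other types: 246 of 765 other EC and 17 of 55 members had 3 or more counts of at least 2 fibroblast or vascular smooth muscle cell (VSMC) markers.

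The panel brings together genes of several kinds. *Klk10* encodes a secreted kallikrein-related serine protease, known in arterial endothelium as a gene maintained by steady laminar flow. *Hbegf*, *Pthlh* and *Fgf18* encode secreted or shed ligands: a membrane-anchored growth factor that activates the EGF receptor, the parathyroid hormone-related protein that relaxes smooth muscle, and a fibroblast growth factor best known from cartilage and bone. *Tspan11* is a tetraspanin of the cell membrane, *Mtss1* an adaptor that bends membranes and binds actin, and *Bcl6b* a transcriptional repressor that is enriched in endothelium. In arteries, steady flow raises the transcription factors *Klf2* and *Klf4*, while disturbed flow raises adhesion molecules, endothelin and growth factors of the BMP and CCN families.

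The promoters of the panel genes are shown because these genes chose the members. RefSeq windows on GRCm38.p6, from 250 bases before to 50 after the transcription start, were matched for *Klk10*, *Pthlh*, *Tspan11* and *Fgf18*. The sequences for *Klk10* (chr7:43780804-43781103, plus strand) and *Pthlh* (chr6:147263964-147264263, minus strand) are written 5′ to 3′ on the gene's strand, and capitals mark CACCC, the core bound by KLF factors, or its reverse complement GGGTG.
Klk10: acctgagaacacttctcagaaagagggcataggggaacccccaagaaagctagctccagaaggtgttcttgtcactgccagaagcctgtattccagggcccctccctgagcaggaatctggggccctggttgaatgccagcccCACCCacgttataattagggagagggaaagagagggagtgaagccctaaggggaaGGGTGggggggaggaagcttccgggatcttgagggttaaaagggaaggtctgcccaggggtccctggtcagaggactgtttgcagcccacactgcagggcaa
Pthlh: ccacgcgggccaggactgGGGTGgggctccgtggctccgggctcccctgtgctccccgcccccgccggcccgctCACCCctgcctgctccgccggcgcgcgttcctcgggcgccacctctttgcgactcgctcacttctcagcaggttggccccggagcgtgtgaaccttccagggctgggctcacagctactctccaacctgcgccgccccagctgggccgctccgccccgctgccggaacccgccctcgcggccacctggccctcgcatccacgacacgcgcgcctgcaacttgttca

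On either strand, CACCC was found in 4 of the 4 panel windows. It was also in 57.5% of all 32851 windows outside chromosome 18. Among genes higher in the members it was in 68.6% of 35 windows, and among lower genes in 72.1% of 86. The TEAD core GGAATG, or CATTCC on the other strand, was in 0 of the 4 panel windows and in 14.7% of all windows. It was in 8.57% of the windows of higher genes and in 15.1% of those of lower genes. A letter match of this length describes the window and does not show binding.

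The score formed a continuum without a gap at the threshold. The last cell taken in scored 0.586229 and the first left out scored 0.586169. Counting these cells, 26 members lay within 0.1 above the threshold and 28 other EC within 0.1 below it, while the highest member reached 1.19. No member held all 7 panel genes: 12 members had counts of 2 panel genes, 20 had 3, 15 had 4 and 8 had 5. Among the other EC, 306 had no panel gene and 309 had 1.

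**Figure D1:**
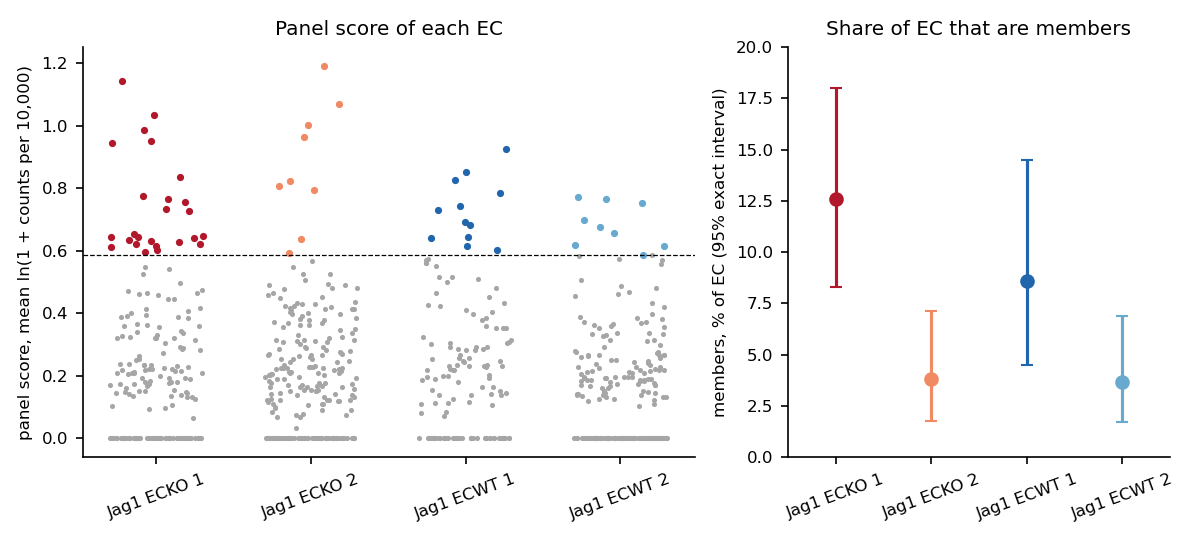
Left, the panel score of each EC by library, with members in color, other EC in gray and a dashed line at the score of the last member; right, the percentage of EC that were members, with 95% exact binomial intervals. Scores run on through the threshold in every library, and the share was highest in ECKO 1 (12.6%).

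Members were found in every library. They were 25 of 199 EC in ECKO 1 (12.6%, 95% exact Clopper-Pearson interval 8.30 to 18.0), 9 of 236 in ECKO 2 (3.81%, 1.76 to 7.12), 12 of 140 in ECWT 1 (8.57%, 4.51 to 14.5) and 9 of 245 in ECWT 2 (3.67%, 1.69 to 6.86). The intervals cover counting error only. ECKO 1 alone gave 45.5% of the members but 24.3% of the EC. The mean share was 8.19 ± 6.19% (SD, n = 2) in libraries labelled ECKO and 6.12 ± 3.46% (n = 2) in those labelled ECWT, a difference of 2.07 points (two-sided exact permutation test, p = 0.667, where the smallest possible p is 0.333). The 2 libraries of each label differed from each other by more than the labels did. The difference turned negative without ECKO 1 (-2.31 points) and without ECWT 2 (-0.38 points), and with the 80 highest EC in place of 55 it was -0.0968 points.

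Depth differed between members and other EC in both directions. The median counts per cell, members first, were 4509 and 4141 in ECKO 1, 6094 and 6553 in ECKO 2, 8192 and 5332 in ECWT 1, and 5001 and 5220 in ECWT 2. Members were deeper in 2 libraries and shallower in the other two, with a mean log2 ratio of 0.14 ± 0.33 (SD, n = 4, exact sign-flip permutation test, two-sided p = 0.625, smallest possible 0.125). After each EC was thinned to 2500 counts and scored again, 34 of the 55 members were among the 55 highest, and 52 members were deep enough to be thinned.

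The endothelial markers of the rule were present in the members. *Pecam1* and *Vwf* had a count in 55 of 55 members and *Cdh5* in 43 of 55, or 78.2% against 83.0% of the other EC. Of the 12 endothelial markers listed, *Emcn*, an endothelial sialomucin (log2 difference -1.28, edgeR adjusted p = 0.00263, and 0.113 without ECKO 2), and *Eng*, given below, were lower in the members and none was higher. Among all 7564 genes tested, 1.19% were lower and 0.608% higher. Leukocyte markers, 4 of which were in the table, summed to 0 CPM in the members of 3 libraries and to 32.1 CPM in ECKO 2.

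The panel genes themselves, described without a test, were unequal in how many members carried them. *Klk10* had a count in 53 of 55 members, at 941, 883, 1016 and 551 CPM in ECKO 1, ECKO 2, ECWT 1 and ECWT 2, the order used for all values below. It was also a common transcript of the other EC, with a count in 43.9% of them and levels of 264, 203, 206 and 182 CPM. The members' lowest *Klk10* level was thus above the highest of the other EC.

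The other members of the panel were sparse outside the chosen cells. *Mtss1* had a count in 33 of 55 members (60.0%) and 10.8% of other EC, *Pthlh* in 27 (49.1%) and 5.36%, *Bcl6b* in 26 (47.3%) and 10.1%, and *Tspan11* in 23 (41.8%) and 6.93%. *Hbegf* had a count in 12 members (21.8%) and 4.97% of other EC, and *Fgf18* in 10 (18.2%) and 2.61%. *Pthlh* stood at 83.5, 289, 157 and 173 CPM in the members against 11.8, 8.74, 23.6 and 11.96 CPM in the other EC. *Hbegf* stood at 15.2, 626, 41.9 and 157 CPM in the members, and a single cell of ECKO 2 held 32 of its 55 counts in all members. *Fgf18* had no count in the members of ECKO 2 and 17 counts in all.

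Leaving a gene out of the score shows how far the other 6 carried it along. In each such choice the 55 EC of highest score over the other 6 genes were taken, and the left-out gene was then read in them. *Klk10* had a count in 78.2% of the cells so chosen and in 45.2% of the rest, *Mtss1* in 41.8 and 12.2%, *Pthlh* in 29.1 and 6.80%, and *Hbegf* in 18.2 and 5.23%. These 4 genes had higher CPM in the chosen cells in 4 of 4 libraries. *Bcl6b* (29.1 and 11.4%) and *Tspan11* (23.6 and 8.24%) were higher in 3 of 4 libraries, the exception being ECWT 2. *Fgf18* had a count in 1.82% of the chosen cells, which is 1 cell, and in 3.79% of the rest. With the choice made again on thinned counts its shares had the opposite order, 5.45 and 2.05%, and those of *Hbegf* were close, at 3.64 and 2.86%. The panel had been put together with these cells in view, so the shares are a description.

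**Figure D2:**
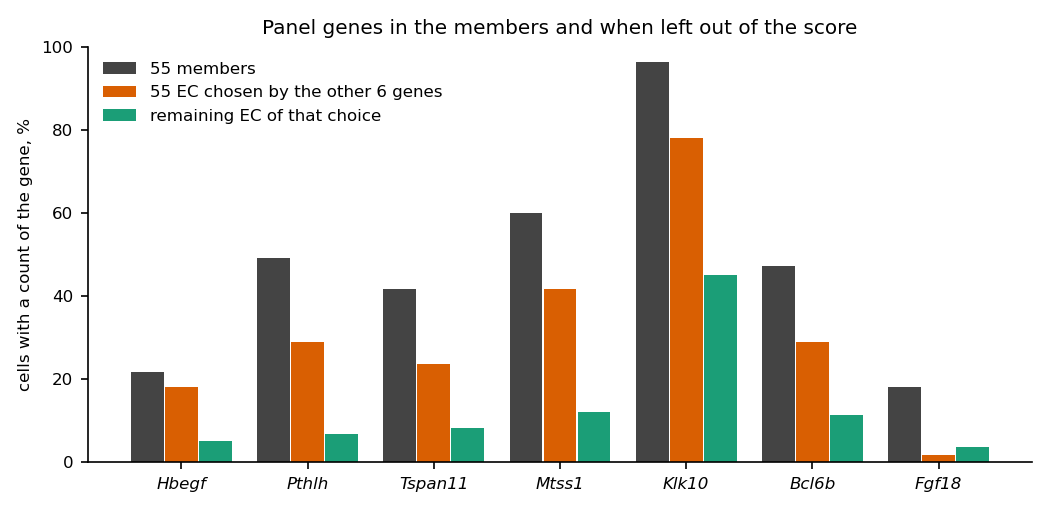
Percentage of cells with a count of each panel gene in the 55 members, in the 55 EC chosen by the other 6 genes, and in the remaining EC of that choice. All panel genes but *Fgf18* are more frequent in the chosen cells when left out of the score; for *Fgf18* the shares are 1.82 and 3.79%, an order that turns in thinned cells.

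Once the panel genes were removed, members were close to one another in some libraries and not in others. For every member the 15 nearest EC of its own library were found on the remaining genes, in cells thinned to 2500 counts. The share of neighbors that were members, divided by the share of members among the EC available, was 0.96 in ECKO 1, 3.61 in ECKO 2, 1.59 in ECWT 1 and 0.87 in ECWT 2 (mean 1.76 ± 1.27, SD). Without thinning, the ratio was above 1 in 4 of 4 libraries, with a mean of 2.21. In thinned cells it was above 1 in 4 libraries with 30 components in place of 20 (mean 1.85). It was above 1 in 3 libraries with 10 components or 30 neighbors, and in 2 with 10 neighbors. Of the 55 EC ranked highest for *Lyve1*, *Aqp1*, *Igfbp5* and *Sema3d*, 11 were members (20% of each list, where 6.71% of EC are members), and of those ranked highest for *Dcn*, *Sfrp2*, *Thbs1* and *Gdf6* 0 were. The list ranked by *Vcan*, *Hapln1*, *Nog* and *Igf2* held 6 members (10.9%), those ranked by *Cxcl1*, *Cd74*, *Cxcl12* and *Plxdc2* and by the capillary or lipid-handling markers 1 each (1.82%), and that ranked by *Slc26a4*, *Pla2g5* and *Pcolce2* 0. These overlaps and ratios have no test.

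The comparison of members with other EC asked which genes outside the panel differ within libraries. Counts were summed over members and over other EC of each library, and 7564 genes were tested with edgeR with the library as a term. Members had higher levels of 46 genes (0.608% of the genes tested) and lower levels of 90 (1.19%) at a Benjamini-Hochberg adjusted p below 0.05. Of these, 40 and 83 had the same direction in all 4 libraries. For 27 of the 46 higher genes all 4 member levels lay above all 4 levels of the other EC, as they did for 212 genes tested (2.8%); for 53 of the 90 lower genes they lay below, as for 294 genes tested (3.89%). The median log2 difference over all genes was -0.08. Without TMM scaling it was -0.01, with 64 genes higher and 74 lower, and with RLE size factors 65 were higher and 79 lower.

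The counts depend on which libraries enter. They were 30 higher and 41 lower without ECKO 1, which gave the largest number of members, and 24 and 56 without ECWT 1. DESeq2 gave 23 higher and 27 lower, all of them among the 136 of edgeR. In cells thinned to equal depth, with the same members, 8 genes were higher and 63 lower, and 57 of the 71 were shared with the main result. Genes that fell thus made up the larger part with and without thinning.

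**Figure D3:**
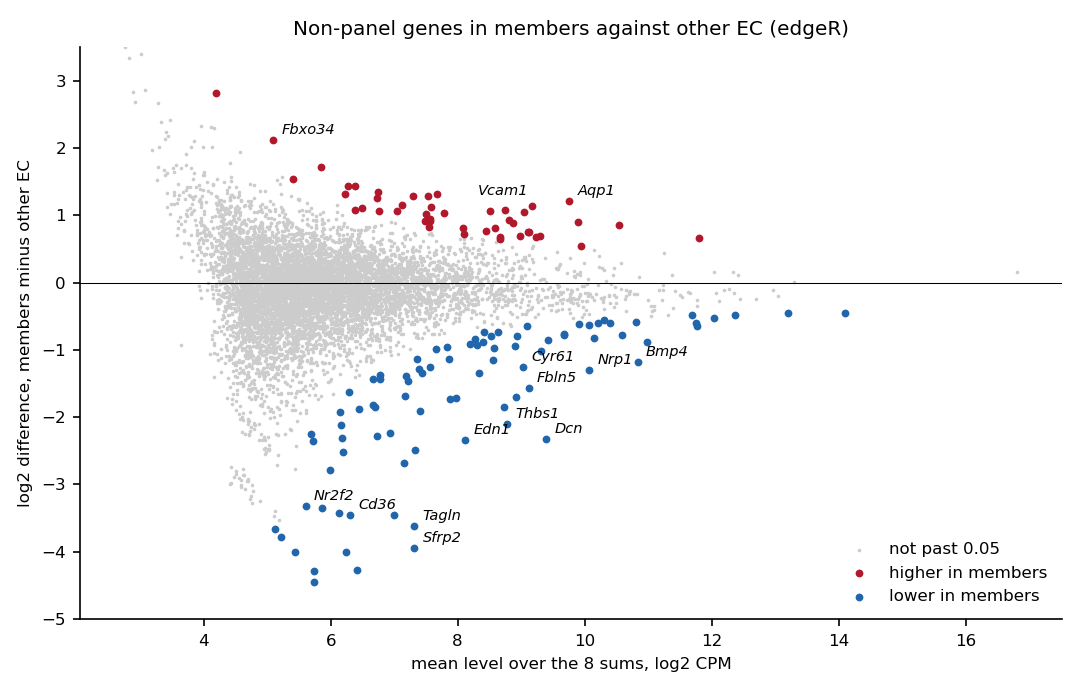
Log2 difference, members minus other EC, against the mean level of each non-panel gene over the 8 sums (log2 CPM), with genes at an adjusted p below 0.05 in red (46 higher) and blue (90 lower). The lower genes include large differences at high level such as *Dcn*, *Bmp4* and *Nrp1*; 9 genes fall outside the plotted range, 3 of them among the 90.

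Of the genes raised by laminar flow, 16 of 20 listed were tested, of which 2 rose in the members and 0 fell. Their median log2 difference was 0.42, against -0.08 over all genes, of which 0.608% were higher and 1.19% lower. *Klf4*, a transcription factor induced by steady flow, stood at 699, 466, 954 and 378 CPM in the members and at 413, 196, 365 and 253 CPM in the other EC. It was higher in the members of each library, although the ranges of the groups overlap (log2 difference 0.93, SE 0.19, edgeR adjusted p = 1.57e-04). The call was lost without ECWT 1 (log2 difference 0.76, adjusted p = 0.0744) and, with a fold of about that size, in thinned cells (0.76, adjusted p = 0.0724). *Ptgs2*, the inducible cyclooxygenase, passed (log2 difference 2.82, edgeR adjusted p = 0.00865), but rested on 21 counts in 3 members, 71.4% of them in 1 cell. In ECWT 1 it was lower in the members (0 against 13.1 CPM). Its call was lost in thinned cells (2.01, edgeR adjusted p = 0.559), with DESeq2 (2.03, adjusted p = 0.888) and without ECKO 1 (3.11, edgeR adjusted p = 0.0592). It held without ECWT 1 (3.67), and the gene fell under the count filter without ECKO 2 or ECWT 2. *Klf2*, the related flow-induced factor, had a log2 difference of 0.43 (SE 0.19, edgeR adjusted p = 0.359), and *Nos3*, the endothelial nitric oxide synthase, 0.32 (SE 0.18, adjusted p = 0.620). Neither passed the test. Both passed when EC with fibroblast or VSMC genes were left out and 55 members were chosen again (*Klf2* 0.66, adjusted p = 0.017, *Nos3* 0.62, adjusted p = 0.0243), and neither did with the 38 members that stayed (0.53, adjusted p = 0.423, and 0.41, adjusted p = 0.659).

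Of 12 genes raised by disturbed flow that were tested, 6 fell, *Edn1*, *Ctgf*, *Cyr61*, *Bmp4*, *Thbs1* and *Fn1*, and 1 rose, *Vcam1*. Their median log2 difference was -1.20, against -0.08 over all genes, of which 1.19% were lower and 0.608% higher. *Edn1*, which encodes the vasoconstrictor endothelin-1, stood at 91.1, 32.1, 0 and 189 CPM in the members and at 402, 312, 212 and 438 CPM in the other EC. All member levels were below all levels of the other EC (log2 difference -2.34, SE 0.29, edgeR adjusted p = 6.28e-13). In cells, 14.5% of members and 52.8% of other EC had an *Edn1* count, and in thinned cells 9.62 and 39.0%.

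*Thbs1*, encoding the matrix protein thrombospondin-1, was at 106, 16.1, 62.9 and 456 CPM in the members and at 613, 496, 576 and 543 CPM in the other EC. It was lower in every library, with a small step in ECWT 2, where a single member cell held 29 of the 50 counts that all members had (log2 difference -2.10, SE 0.23, edgeR adjusted p = 1.29e-15). Without ECWT 2 the log2 difference was -3.12. DESeq2 gave a log2 difference of -2.58 with an adjusted p of 0.0828. *Bmp4*, a bone morphogenetic protein, was among the most abundant of these genes, at 1002, 1012, 671 and 1731 CPM in the members and 2030, 2317, 2273 and 2412 CPM in the other EC. The groups did not overlap (log2 difference -1.18, SE 0.15, edgeR adjusted p = 2.61e-11).

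The CCN family genes *Cyr61* and *Ctgf*, which are targets of the transcriptional coactivator YAP, were also lower. *Cyr61* was at 213, 64.2, 304 and 614 CPM in the members against 810, 322, 549 and 791 CPM (log2 difference -1.25, edgeR adjusted p = 4.21e-07), and without ECKO 1 the call was lost (-0.93, adjusted p = 0.0769). *Ctgf* had 12 counts in 2 members and was at 15.2, 0, 0 and 157 CPM against 204, 69.3, 61.5 and 114 CPM, higher in the members of ECWT 2 and lower in the other libraries (log2 difference -1.85, edgeR adjusted p = 0.00152). It was not called without ECKO 1 (-0.96, adjusted p = 0.710), without the highest cells of other EC groups (-1.12, adjusted p = 0.299) or by DESeq2 (-3.11, adjusted p = 0.404). Without ECWT 2 the *Ctgf* difference was -4.26, and 1 cell held 83.3% of its member counts. *Fn1*, encoding fibronectin, had a log2 difference of -0.78 (SE 0.17, edgeR adjusted p = 0.00114), which was not called without ECWT 1 (-0.55, adjusted p = 0.265). In the 11 genes of the list tested in thinned cells, the same 6 fell.

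*Vcam1*, the adhesion molecule that holds leukocytes to activated endothelium, rose in the members although it is on the disturbed-flow list. Its level was 402, 1461, 1100 and 645 CPM in the members and 346, 369, 407 and 294 CPM in the other EC. The step was small in ECKO 1 and largest in ECKO 2 (log2 difference 1.14, SE 0.18, edgeR adjusted p = 5.11e-08), and the call held with each library left out and in thinned cells. Of 13 leukocyte adhesion and chemokine genes tested, 4 rose and 0 fell (median log2 difference 0.37). For all genes the shares were 0.608% higher and 1.19% lower, and the median was -0.08. Besides *Vcam1* the genes that rose were *Cd34* (0.68, edgeR adjusted p = 0.00744) and *Podxl* (0.75, adjusted p = 0.00208), sialomucins of the cell surface, and *Jam2* (0.88, adjusted p = 3.72e-04), a junctional adhesion molecule. Without ECKO 2 only *Vcam1* of these 4 passed, with *Jam2* at 0.45 (adjusted p = 0.475), *Cd34* at 0.47 (adjusted p = 0.337) and *Podxl* at 0.54 (adjusted p = 0.178). In thinned cells *Jam2* (0.64, adjusted p = 0.191), *Cd34* (0.56, adjusted p = 0.220) and *Podxl* (0.47, adjusted p = 0.427) lost their call. *Podxl* was not called without ECKO 1 either (0.85, adjusted p = 0.0514), nor *Cd34* without ECWT 2 (0.66, adjusted p = 0.0649). *Icam1*, another receptor for leukocytes, had a log2 difference of -0.13 (edgeR adjusted p = 0.938).

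**Figure D4:**
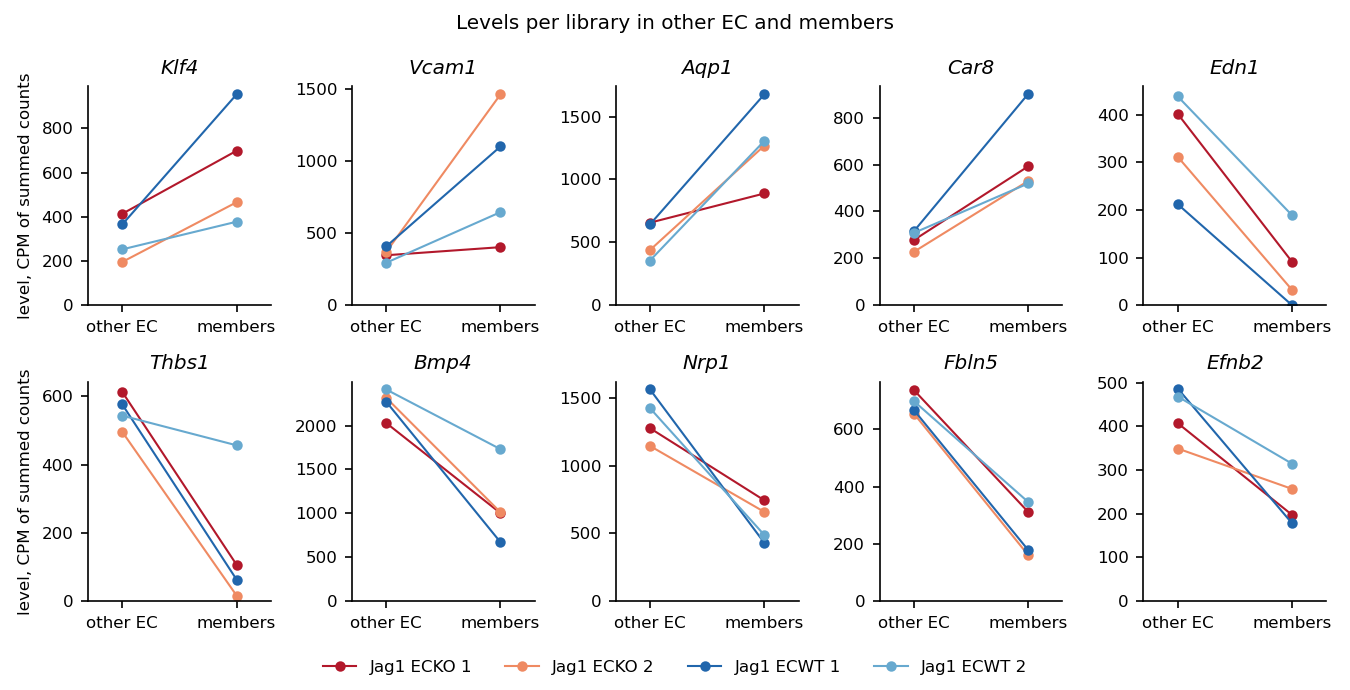
Levels (CPM of summed counts) in other EC and members of each library for 4 higher and 6 lower genes, one line per library. Each gene moves the same way in 4 of 4 libraries, with *Vcam1* nearly level in ECKO 1 and *Thbs1* nearly level in ECWT 2.

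Of 20 arterial genes tested, 6 fell and 1 rose, with a median log2 difference of -0.46, beside 1.19% lower, 0.608% higher and a median of -0.08 over all genes. *Nrp1*, a co-receptor for VEGF and semaphorins, was at 744, 658, 430 and 488 CPM in the members and at 1277, 1146, 1563 and 1425 CPM in the other EC. *Fbln5*, which encodes an elastic fiber protein, was at 311, 161, 178 and 346 CPM against 737, 655, 668 and 699 CPM. Neither gene's groups overlapped (log2 differences -1.30, SE 0.17, and -1.57, SE 0.20, edgeR adjusted p = 2.05e-11 and 1.89e-11).

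Smaller arterial differences kept their direction, but not their call, with some libraries left out. *Efnb2*, the arterial ephrin ligand, was at 197, 257, 178 and 315 CPM against 408, 349, 487 and 469 CPM (log2 difference -0.98, edgeR adjusted p = 8.93e-04), and was not called without ECKO 1 (-0.89, adjusted p = 0.0961) or ECWT 1 (-0.80, adjusted p = 0.102). *Gja4*, a gap junction connexin, had a log2 difference of -0.93 (adjusted p = 0.00471), not called without ECKO 1 (-0.79, adjusted p = 0.251) or ECWT 1 (-0.79, adjusted p = 0.169). *Fbln2* and *Tm4sf1* fell by 0.76 and 0.61 on the log2 scale (edgeR adjusted p = 0.00149 and 0.00191); *Fbln2* was not called without ECKO 1 (-0.67, adjusted p = 0.160) or ECWT 2 (-0.62, adjusted p = 0.085), nor *Tm4sf1* without ECKO 1 (-0.66, adjusted p = 0.0619) or ECWT 1 (-0.47, adjusted p = 0.281). The groups did not overlap in *Efnb2*, *Gja4* and *Fbln2*. *Stmn2*, a microtubule regulator found in arterial EC, was the gene that rose (1.03, SE 0.22, adjusted p = 5.32e-04), at 251, 337, 430 and 346 CPM against 143, 164, 152 and 163 CPM. Its call was lost without ECWT 1 (0.88, adjusted p = 0.0799) and in thinned cells (0.36, adjusted p = 0.838). The venous regulator *Nr2f2* was low in both groups and had 2 counts in the members, both in 1 cell (-3.33, edgeR adjusted p = 0.00453). It lost its call in thinned cells (-2.92, edgeR adjusted p = 0.320) and with the 38 members left without fibroblast or VSMC genes (-2.74, adjusted p = 0.175). *Nr2f2* kept its call without ECWT 1 or ECWT 2, fell under the count filter without ECKO 1 or ECKO 2, and had no adjusted p from DESeq2.

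Of 20 BMP and TGF-beta genes tested, 5 fell and 0 rose (median log2 difference -0.50). Over all genes 1.19% were lower and 0.608% higher, with a median of -0.08. Besides *Bmp4* the genes that fell were the BMP ligand *Gdf6*, the co-receptor *Eng* (-0.73, edgeR adjusted p = 0.0326), the inhibitory *Smad6* (-1.34, adjusted p = 0.00125) and the target *Id2* (-0.96, adjusted p = 0.016). *Gdf6* had no count in any member and stood at 35.3, 21.6, 54.98 and 31.0 CPM in the other EC, which makes it at least 4.40-fold lower with a floor of 3 counts over all members and the levels of the other EC weighted by the members' counts in each library. Without ECKO 1 that bound was 2.85 and without ECWT 1 2.65, and the call was lost in both (edgeR adjusted p = 0.115 and 0.107). *Bmp4* passed in thinned cells, with DESeq2 and without ECKO 1. *Eng*, *Smad6* and *Id2* passed in none of these settings, with folds of about the size above: *Smad6* was at -1.18 in thinned cells, -1.29 with DESeq2 and -1.15 without ECKO 1, *Id2* at -1.02, -0.89 and -0.80, and *Eng* at -0.66, -0.65 and -0.60. *Gdf6* was not tested in thinned cells and had no adjusted p from DESeq2. *Id1*, another target of this pathway, had a log2 difference of 0.90, opposite in sign, with an edgeR adjusted p of 0.0593; it passed as higher without ECKO 1 and without TMM scaling.

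Pathways of the panel's own ligands showed no call. Of the EGF family ligands, receptors and sheddases 6 were tested, of the FGF genes 7, of the parathyroid hormone family 2 and of the kallikreins 2. None passed the edgeR threshold, where 1.19% of all genes were lower and 0.608% higher. Of the 17, 1 had an unadjusted p below 0.05, the FGF feedback inhibitor *Spry4* (log2 difference 2.67, SE 1.13, edgeR adjusted p = 0.315). *Klk8* and *Klk11*, kallikreins that lie in the same cluster as *Klk10*, had log2 differences of 0.57 (SE 0.30, adjusted p = 0.526) and 0.73 (SE 0.52, adjusted p = 0.760). *Adam17*, the sheddase that releases *Hbegf* from the cell surface, had a log2 difference of -0.04 (SE 0.41, adjusted p = 0.995), and *Fgfr3*, a receptor for *Fgf18*, one of 0.41 (SE 0.36, adjusted p = 0.834).

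In the Notch pathway 1 of 17 genes tested fell and 0 rose, beside 1.19% lower and 0.608% higher over all genes. It was *Nrp1*, which is listed with the Notch genes and was described above. *Jag1* itself was at 121, 145, 10.5 and 47.2 CPM in the members and at 171, 68.2, 35.3 and 24.6 CPM in the other EC. It was higher in the members of 2 libraries and lower in those of the other two (log2 difference -0.05, SE 0.38, edgeR adjusted p = 0.990). The receptors *Notch1* (-0.09, SE 0.23, adjusted p = 0.971) and *Notch4* (-0.05, SE 0.31, adjusted p = 0.989) did not pass either.

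The genes of largest upward difference with one direction in 4 of 4 libraries were of mixed function. *Aqp1*, a water channel of continuous endothelium, was the most abundant of them, at 888, 1269, 1677 and 1306 CPM in the members and 656, 439, 643 and 355 CPM in the other EC. The groups did not overlap (log2 difference 1.21, SE 0.16, edgeR adjusted p = 6.47e-11), and of the 15 genes so named it alone was called in every setting that tested it. *Car8*, a carbonic anhydrase-related protein, was at 592, 530, 901 and 519 CPM against 278, 228, 316 and 308 CPM, again without overlap (1.08, SE 0.19, adjusted p = 2.69e-06).

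*Fbxo34*, an F-box protein, had the largest fold among them, at 98.7, 112, 62.9 and 94.4 CPM in the members and 18.8, 15.1, 28.8 and 17.6 CPM in the other EC. Its groups did not overlap (log2 difference 2.11, SE 0.47, edgeR adjusted p = 9.80e-04), but it rested on 32 counts in 16 members and was not called without ECKO 1 (2.07, adjusted p = 0.0843). *Tnfaip2*, a gene induced by tumor necrosis factor, was at 251, 337, 409 and 283 CPM against 144, 93.2, 145 and 104 CPM (1.29, SE 0.23, adjusted p = 8.03e-06), and *Clic5*, a chloride channel family protein, was at 228, 337, 304 and 220 CPM against 95.4, 119, 117 and 88.0 CPM (1.28, SE 0.25, adjusted p = 4.25e-05). Both kept their call with each library left out and lost it in thinned cells, where *Tnfaip2* was at 0.87 (adjusted p = 0.321) and *Clic5* at 0.56 (adjusted p = 0.748). In both genes every member level was above every level of the other EC.

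Others of these genes lost their call with some libraries left out, with folds that fell in some cases and held in others. *Il2rg*, the common cytokine receptor chain, was at 45.6, 273, 210 and 31.5 CPM against 36.5, 40.2, 34.0 and 30.3 CPM, so that it stood clearly higher in 2 libraries (log2 difference 1.72, edgeR adjusted p = 4.39e-04), and it was not called without ECKO 2 (1.29, adjusted p = 0.182) or ECWT 1 (1.34, adjusted p = 0.265). *Cdkn1a*, the cell cycle inhibitor p21, had 25 of its 51 member counts in 1 cell and was not called without ECWT 2 (0.67, adjusted p = 0.732). *Icosl*, a costimulatory ligand, passed at 1.43 (adjusted p = 7.46e-04) but not without ECWT 1 (1.32, adjusted p = 0.0744). *Syt7* (1.13), *Gprc5a* (1.35), *Kcnn4* (1.32), *Ldb2* (1.25), *Gphn* (1.53) and *Lama5* (1.11) passed as well, and each lost its call without at least 1 library. Without ECKO 1, *Gprc5a* was at 1.15 (edgeR adjusted p = 0.160), *Ldb2* at 1.04 (adjusted p = 0.209), *Gphn* at 1.16 (adjusted p = 0.584) and *Lama5* at 1.24 (adjusted p = 0.122). Without ECKO 2, *Kcnn4* was at 0.89 (adjusted p = 0.438) and *Lama5* at 0.85 (adjusted p = 0.378), and without ECWT 1 *Syt7* was at 0.84 (adjusted p = 0.177) and *Kcnn4* at 1.33 (adjusted p = 0.0799). All member levels of *Icosl*, *Gprc5a* and *Ldb2* were above all levels of the other EC. *Igfbp5*, an IGF-binding protein, rose by the test (1.31, adjusted p = 4.32e-05) but was lower than in the other EC in ECKO 1 and ECWT 2, and 1 cell held 60.2% of its member counts. It was not called without ECKO 2 (0.88, adjusted p = 0.378), without ECWT 1 (0.89, adjusted p = 0.250), in thinned cells (1.13, adjusted p = 0.0736) or by DESeq2 (0.90, adjusted p = 0.984).

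The genes of largest downward difference had few counts in the members. Shares of other EC with a count ran from 3.01% for *Itga8* to 22.6% for *Ctnnal1*, each in 1.82% of members. *Sfrp2* had a count in 9.09% of members and 19.6% of other EC. *Coch*, a matrix protein, had 2 counts in all members, and was at 7.59, 0, 10.5 and 0 CPM against 100, 57.1, 183 and 55.6 CPM (log2 difference -4.27, SE 0.66, edgeR adjusted p = 6.49e-08). *Chad*, a cartilage matrix protein, had no count in any member and was at 34.2, 84.5, 2.62 and 38.7 CPM in the other EC, which makes it at least 4.16-fold lower with the same floor and weights. Without ECKO 2, where it was highest, the bound was 2.40 and the call was lost (edgeR adjusted p = 0.116), as it was without ECKO 1 (bound 2.66, adjusted p = 0.0961). *Sfrp2*, a secreted Wnt modulator, was at 7.59, 0, 10.5 and 47.2 CPM against 306, 72.8, 173 and 234 CPM (-3.95, edgeR adjusted p = 3.00e-14). Its difference ran from -3.21 without ECKO 1 to -4.95 without ECWT 2. *G0s2*, *Ctnnal1*, *Gpm6a*, *Crispld2* and *Itga8* each had 1 count in the members. Of these, *G0s2* kept its call with each library left out, but not in thinned cells (-3.03, edgeR adjusted p = 0.255) or with the 38 members left without fibroblast or VSMC genes (-2.96, adjusted p = 0.424), and DESeq2 gave it no adjusted p. Without ECKO 1, *Ctnnal1* (-3.51, edgeR adjusted p = 0.0961), *Gpm6a* (-2.90, adjusted p = 0.389) and *Crispld2* (-2.56, adjusted p = 0.570) were not called. *Crispld2* was not called without ECKO 2 (-3.47, adjusted p = 0.0758) or ECWT 2 (-3.36, adjusted p = 0.160) either. *Itga8* fell under the count filter when either library labelled ECKO was left out, and was at -3.63 (adjusted p = 0.0526) without ECWT 2. *Pcolce2*, an enhancer of procollagen processing, was at 75.9, 177, 83.8 and 15.7 CPM against 237, 174, 347 and 351 CPM (-1.73, adjusted p = 5.24e-07), lower in 3 of 4 libraries.

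Markers of other cell types moved with the comparison, in which 1.19% of all genes were lower and 0.608% higher. Summed levels of 8 VSMC markers were 105 to 450 CPM in the members and 473 to 1864 CPM in the other EC, and lower in the members of each library, with 0 of the 8 at 0; 5 of 7 tested fell, such as *Acta2* (-1.70, edgeR adjusted p = 2.70e-11) and *Tagln* (-3.62, adjusted p = 3.04e-13). The 10 fibroblast markers summed to 638 to 1551 CPM in the members and 1480 to 2391 CPM in the other EC, with *Pdgfra* and *Dpt* at 0 in the members. Of 8 tested, *Dcn* (-2.32, edgeR adjusted p = 2.27e-24) and *Col3a1* (-3.45, adjusted p = 8.76e-10) fell. *Dcn* kept its call in 29 of 30 alternatives and lost it in 1 (edgeR adjusted p = 0.878). Its difference ran from -2.66 to -0.22 over these alternatives. The 8 capillary or lipid-handling markers summed to 0 to 410 CPM and 224 to 994 CPM, with *Gpihbp1*, *Rgcc* and *Car4* at 0 in the members; *Cd36* and *Fabp4* fell. Counted by cell, *Acta2* was in 58.2% of members and 57.0% of other EC, and *Myh11* in 18.2 and 16.3%. *Fabp4* was in 18.2 and 16.1% of them and *Cd36* in 5.45 and 6.80%. DESeq2 did not call *Fabp4* (-2.50, adjusted p = 0.170) and called *Cd36* (-3.42, adjusted p = 0.00696). There were 19 EC with 6 or more fibroblast or VSMC genes, and 0 of them were members. Without these cells *Acta2* (-0.59, edgeR adjusted p = 0.305), *Myh11* (-0.13, against -2.24 with them, adjusted p = 0.985) and *Mylk* (-1.25, adjusted p = 0.288) were not called, while *Tagln* (-2.51, adjusted p = 2.93e-04), *Dcn* (-2.03) and *Col3a1* (-3.01) were. When EC with 2 or more fibroblast or VSMC genes were left out on both sides, 38 members and 519 other EC remained. *Edn1* (-3.41), *Thbs1* (-2.63), *Bmp4* (-1.51), *Nrp1* (-1.04), *Fbln5* (-1.61), *Dcn* (-1.46), *Fn1* (-0.95), *Vcam1* (1.66), *Aqp1* (1.02) and *Tnfaip2* (1.33) still passed. *Acta2* (-0.23, edgeR adjusted p = 0.952), *Col3a1* (-1.33, adjusted p = 0.670), *Efnb2* (-0.95, adjusted p = 0.0742), *Sfrp2* (-2.23, adjusted p = 0.228), *Coch* (-2.42, adjusted p = 0.302) and *Klf4* (0.67, adjusted p = 0.229) did not. Nor did *Fbxo34* (1.98), *Gprc5a* (1.16), *Il2rg* (0.84), *Syt7* (0.81) and *Cd34* (0.45) among the higher genes, or *Smad6* (-1.03), *Id2* (-0.82), *Eng* (-0.53) and *Tm4sf1* (-0.51) among the lower. In all, 24 of the 60 genes named by rule passed with these cells. When 17 further EC were taken in to make 55 members again, 31 of the 60 passed, *Klf4* (0.80), *Coch* (-3.20) and *Sfrp2* (-2.17) among them, while *Fn1* (-0.51), *Efnb2* (-0.50) and *Tnfaip2* (0.89) did not. *Fbln5* passed there with a smaller difference (-0.79, adjusted p = 0.00367).

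Other groups of EC were also part of the background. When the 55 highest EC of each of 6 other gene groups were removed from the other EC and the members were kept whole, 65 genes were higher and 80 lower, 113 of the 145 being shared with the same sign with the main result. *Edn1* (-2.06), *Thbs1* (-1.28), *Bmp4* (-0.99), *Nrp1* (-1.15) and *Fbln5* (-1.505) stayed past the threshold. *Sfrp2* (-1.49, edgeR adjusted p = 0.424), *Emcn* (-0.19, adjusted p = 0.925) and *Eng* (-0.41, adjusted p = 0.506) did not, and *Fabp4* turned to 1.56 (adjusted p = 0.029), with 72.0% of its member counts in 1 cell. *Fabp4*, *Sfrp2*, *Thbs1*, *Aqp1* and *Igfbp5* were among the genes that ranked the removed cells. Removing those cells from 1 side only lowers these genes there by construction. With the members among those cells left out too, 37 members remained, and 31 genes were higher and 76 lower. The cells ranked by *Dcn*, *Sfrp2*, *Thbs1* and *Gdf6* held 0 members, so their removal stayed on 1 side here too. *Edn1* (-1.82), *Thbs1* (-1.001), *Bmp4* (-1.12), *Nrp1* (-1.25), *Fbln5* (-1.44), *Aqp1* (1.05) and *Vcam1* (0.93) passed, *Cyr61* (-0.68, adjusted p = 0.105) and *Igfbp5* (-0.0605, adjusted p = 0.989) did not, and *Fabp4* fell under the count filter.

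Of the genes induced by cell dissociation, 28 were tested, of which 1 rose, *Klf4*, and 1 fell, *Fos* (log2 difference -2.11, edgeR adjusted p = 0.00613), which had 7 counts in the members. Among all genes tested 0.608% were higher and 1.19% lower. *Fos* was not called without ECKO 1 (-2.67, adjusted p = 0.136), without ECKO 2 (-1.99, adjusted p = 0.052), by DESeq2 (-2.15, adjusted p = 0.160) or with the 38 members left without fibroblast or VSMC genes (-2.10, adjusted p = 0.214). Summed over the 36 genes of the list in the table, members had 5512, 4400, 5250 and 4311 CPM and other EC 5986, 3612, 4479 and 3583 CPM. Mitochondrial genes took a median of 3.46 to 4.36% of counts in members and 3.03 to 4.67% in other EC. *Rn45s*, the ribosomal RNA precursor, took a median of 9.66, 10.2, 8.56 and 6.32% in members and 8.46, 10.01, 5.40 and 6.75% in other EC, with the widest gap in ECWT 1.

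Within the members, the labels were compared over the 4 sums. Of 1441 genes tested, 0 (0%) passed an adjusted p below 0.05 by edgeR, with 60 at an unadjusted p below 0.05, and DESeq2 called 0, with 15. The lowest p belonged to *Cd74*, the invariant chain of MHC class II (log2 difference, labelled ECKO over labelled ECWT, 1.83, SE 0.33, edgeR adjusted p = 0.176). With 1 library left out, which leaves 1 library under its label and assumes that it varies like the others, edgeR called 6 genes without ECKO 1, 21 without ECKO 2, 3 without ECWT 1 and 0 without ECWT 2.

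Whether members differed from other EC by label was tested with an interaction term. Of 7564 genes 1 passed (0.0132%), again *Cd74*, at 1200, 1461, 346 and 362 CPM in the members and 695, 1195, 1661 and 705 CPM in the other EC. Members were above other EC in both libraries labelled ECKO and below them in both labelled ECWT (difference of log2 differences 2.20, SE 0.33, edgeR adjusted p = 3.49e-07). It was not called without ECKO 1 (1.89, adjusted p = 0.0755), without ECWT 1 (1.501, adjusted p = 0.823) or by DESeq2 (2.14, adjusted p = 0.488). The class II genes *H2-Aa* (1.49, SE 0.39, adjusted p = 0.206) and *H2-Eb1* (1.98, SE 0.52, adjusted p = 0.206) had the same sign and did not pass. *Rn45s* had the next lowest p after *Cd74* (-0.74, SE 0.17, adjusted p = 0.0846), at 106309, 115375, 108971 and 146955 CPM in the members and 110486, 128715, 72498 and 97446 CPM in the other EC. By these summed levels it was below other EC in both libraries labelled ECKO and above them in both labelled ECWT, while the medians per cell given above ran the other way in ECKO 1, ECKO 2 and ECWT 2. Its part in the *Cd74* difference was not tested.

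**Figure D5:**
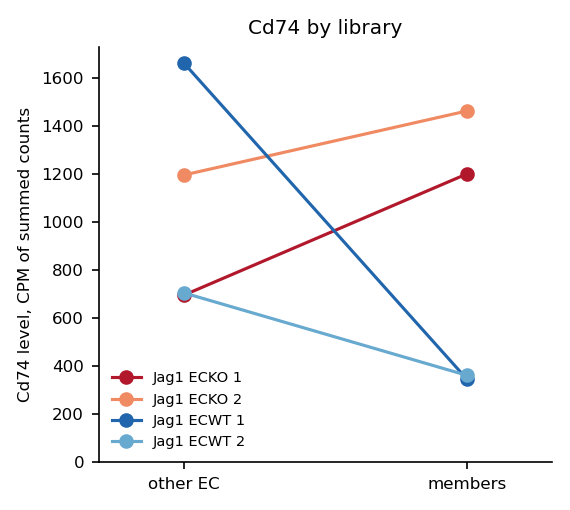
*Cd74* level (CPM of summed counts) in other EC and members, one line per library. Lines rise in both libraries labelled ECKO and fall in both labelled ECWT, where the members stand at 346 and 362 CPM.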

How the data were processed

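The authors sorted single cells, made SORT-seq libraries and, per the labels and the study's methods, aligned reads to GRCm38 with STAR. They deposited estimated counts of transcripts for 18767 genes and 991 cells, corrected for repeated molecular identifiers and not normalized. The counting tool and the STAR version are not given in the sources used here. Estimated counts were rounded to whole numbers for the tests. The members and gene lists were chosen with earlier results of these data known, so list counts are no independent support.

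Counts were summed per library over members and over other EC. edgeR 4.0.16 in R 4.3.3 (TMM, filterByExpr, quasi-likelihood test, Benjamini-Hochberg adjustment over all genes tested) was fitted with library as a term. DESeq2 1.42.0 was an alternative. Thinning drew 2500 counts per cell (seed 7), which left out 3 members and 29 other EC. Likeness used 2000 variable genes and 20 components. No doublet caller was run, and an alternative left out 18 EC above 3 times the median count of their library. Other alternatives changed the filter, scaling, number of members (30 or 80), EC rule, panel and libraries. Named genes were the panel, the 15 largest upward and 10 largest downward differences with one direction in 4 of 4 libraries among genes past 0.05, list genes past 0.05 and *Jag1*. *Id1*, *Klf2*, *Nos3*, *Icam1*, *Spry4*, *Klk8*, *Klk11*, *Adam17*, *Fgfr3*, *Notch1*, *Notch4*, *Cd74*, *H2-Aa*, *H2-Eb1* and *Rn45s* were named after their values were seen. Scripts were tested on simulated data. Gene models are GENCODE on GRCm38, and promoters are from RefSeq on GRCm38.p6. CPM was computed from the summed counts; plots were drawn with matplotlib 3.10.9.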

Additional observations from a re-analysis of the deposited data

Results flagged for a closer look

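*Cd74* was the one gene whose difference between members and other EC itself differed between the labels by a test of that difference. The log2 difference in libraries labelled ECKO minus that in libraries labelled ECWT was 2.20 (SE 0.33, edgeR adjusted p = 3.49e-07), with members above other EC in 2 of 2 libraries labelled ECKO and below in 2 of 2 labelled ECWT. Over its alternatives the adjusted p ranged from 1.17e-07 to 0.823. Members numbered 25, 9, 12 and 9 in the 4 libraries, and the highest member cell held 13.4% of the members' *Cd74* counts. *Jag1* ran against the labels in these libraries, so the direction is that of the labels only.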

How the results depend on the processing

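The counts of genes higher and lower in the members, 46 and 90, became 8 and 63 in thinned cells, 7 and 37 with members chosen again on thinned counts, 18 and 68 with 30 members, 24 and 98 without a filter on low counts, 18 and 38 without EC holding fibroblast or VSMC genes, 33 and 52 when the members were then made up to 55 again, and 23 and 27 with DESeq2. Without the library term (no replicate block) they were 18 and 23. That term compares members with the other EC of their own library. For the labels no paired analysis was possible, because nothing in the sources links a library labelled ECKO to one labelled ECWT. With each library left out the counts ran from 24 to 38 and from 41 to 77. Other settings kept both counts within 1.5 times. The cause of these shifts was not tested.

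Within the members, the labels gave 2 genes without a filter in place of 0, and 0 to 21 with each library left out. For the interaction, DESeq2 called 0 and leaving out each library 0 to 2. The difference in share between labels was -0.0968 points with 80 members, -0.297 with the score without *Klk10*, -0.364 without *Bcl6b*, and ran from -2.31 to 6.44 with each library left out. The mean log2 depth ratio was -0.10 with members chosen on thinned counts. With the gene left out of the score, shares of chosen cells with a count became 29.1% for *Pthlh*, 23.6% for *Tspan11*, 41.8% for *Mtss1*, 78.2% for *Klk10*, 29.1% for *Bcl6b* and 1.82% for *Fgf18*. The likeness ratio moved by less than the spread between libraries in all 5 alternatives. Of 1739 values of named genes under alternatives, 1395 kept direction and call, 340 lost the call and 4 reversed: *Fos* to 0.22 with the score without *Klk10*, *Myh11* to 0.0504 without EC holding fibroblast or VSMC genes, *Fabp4* to 1.56 without the highest cells of other EC groups on the other side only, which the removal itself brings about, and *Igfbp5* to -0.0605 without those cells on both sides. *Igfbp5* was itself among the genes that ranked those cells. Leaving out the highest cells of 6 other EC groups on 1 or both sides, EC with 6 or more fibroblast or VSMC genes, or EC with 2 or more without making up the members, was chosen after seeing the data.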
